A study of Mus musculus with 8 samples.

Results

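The PI3K, Akt, mTOR and FoxO cascade is the set of intracellular proteins that carries a growth factor signal from the receptor to protein synthesis, metabolism and transcription. It was examined here in chondrocytes of the mouse growth plate as a list of 36 genes. Members were found by matching each listed symbol to the gene names of the authors' comparison table, which held 32 of the 36 symbols among 11840 genes, and were linked by Ensembl identifier to the deposited counts of 43629 genes. *Irs2*, *Pik3r3*, *Inpp4b* and *Sesn2* were not in that table, and each had between 1 and 5 counts over all libraries. By role, 19 members drive the cascade, 10 restrain it, and 7 are Akt targets or effectors at its end.

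Receptors of the insulin family phosphorylate adaptor proteins, which recruit PI3K, a lipid kinase built from a catalytic and a regulatory subunit. Its lipid product brings Akt to the membrane for activation. Akt in turn inhibits the GSK3 kinases, keeps FoxO transcription factors out of the nucleus and releases mTOR complex 1 from its restraint by the TSC complex. In the growth plate this route is known for transmitting IGF-1 signals that promote chondrocyte proliferation and hypertrophy. Most of these proteins are switched by phosphorylation, which RNA levels do not measure.

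All animals were Axin2CreERT2;R26RTdTomato mice, in which tamoxifen activates a Cre recombinase in cells that express *Axin2* and thereby turns on red fluorescence in them and their descendants. They were given tamoxifen on 3 consecutive days, P23 to P25, and killed at P30. Resting chondrocytes with TdTomato signal and proliferative chondrocytes without it, the latter defined by a flat shape and a distance of at least 50 µm from the secondary ossification center, were cut out by laser from 8 µm frozen sections, which the labels assign to tibiae and the study's methods to the distal femur and proximal tibia. Each of 4 mice (males 1 and 2, females 6 and 13) gave 1 library per zone, so that n = 4 in each zone. Since Axin2 marks only part of the resting cells, the resting libraries stand for the labeled cells and whatever was cut with them.

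Resting libraries held 192882 to 462044 counts and proliferative libraries 249284 to 631474. Levels are given as CPM, counts divided by library size and brought to a common size with edgeR's TMM factors, and a count of 0 allows up to 3 counts, or 5.79 to 14.5 CPM in resting and 4.90 to 12.7 CPM in proliferative libraries. These limits cover counting error only, since RNA was amplified in 2 rounds without molecular identifiers. The labeled cell type was checked with marker lists, each summed as CPM per library. All 10 chondrocyte markers had a higher mean in the proliferative zone, with sums of 34628 to 59948 CPM against 7132 to 18345 CPM in the resting zone. Resting libraries also carried 9310 to 36464 CPM of osteoblast and osteocyte markers against 632 to 4101 CPM, 1466 to 4487 CPM of osteoclast markers against 14.7 to 455 CPM, and 546 to 841 CPM of hematopoietic markers against 9.80 to 129 CPM. Of these lists, 9 of 10, 8 of 8 and 8 of 8 genes had the higher mean in the resting zone, where no marker of the 3 lists was at 0 in every library. In the proliferative zone *Mepe*, *Sost*, *Calcr*, *Ocstamp* and *Coro1a* were at 0 in every library. Markers of later cartilage went both ways. Of 8 hypertrophic markers 5 had the higher mean in the proliferative zone, among them *Col10a1* (7.64 ± 10.1 against 193 ± 136 CPM, SD, n = 4 each, adjusted p = 0.00139), *Pth1r* (log2 fold change -1.66, adjusted p = 0.0119) and *Mef2c* (-1.57, adjusted p = 0.0113), and *Ihh* had 15, 16, 6 and 2 counts in the proliferative libraries of mice 1, 2, 6 and 13 and 0 in every resting one. *Mmp13* and *Spp1*, which bone cells also express, were called higher in the resting zone, and the list summed to 841 to 1838 CPM there against 855 to 1391 CPM. The part of hypertrophic, bone and blood cells in the zone differences below, in either direction, was not tested, and in such bulk samples fewer cells of a type cannot be told apart from less RNA per cell.

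The strand on which reads were counted bears on every level below. The library kit marks strand, and the strand setting of the counting is not given in the sources used here. *mt-Nd6*, the 1 minus-strand gene among the 13 mitochondrial mRNA genes and known as a scarce RNA, held 137491 counts against 37887 on the other 12 together, from 69.4% to 82.9% of such counts in each library, and it was the gene with the most counts in 7 of 8 libraries. In the libraries of female mice *Tsix* held 18683 counts and *Xist*, the RNA known to be abundant on the opposite strand, 1367. Reads counted on the strand opposite to their gene would give such values. For any member, also one with no annotated exon opposite to it, the part of its counts that came from its own RNA was not tested, and a level below is a level of deposited counts.

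Zones were compared with the quasi-likelihood test of edgeR on counts, with log2 fold changes given as resting over proliferative. A gene was called at a Benjamini-Hochberg adjusted p below 0.01 and a log2 fold change above 1 or below -1. Of 3793 genes kept by edgeR's filter on low counts, 419 (11.0%) were called with higher levels in resting and 263 (6.93%) in proliferative chondrocytes. The filter kept 16 of the 36 members, namely 8 driving members, 2 restraining ones and 6 effectors. It keeps a gene that has enough counts in only 1 zone, so the kept members do not stand for all 36. Of the 16, *Pik3r1* and *Sgk1* were called, both higher in the resting zone (12.5%), and 0 were called higher in the proliferative zone. At an adjusted p below 0.05 without a fold limit, *Pik3r1*, *Sgk1*, *Gsk3b* and *Foxo3* were higher in the resting zone (25.0% of the 16, against 18.2% of all tested genes), and *Irs1* and *Foxo1* were higher in the proliferative zone (12.5%, against 13.1%). These shares stand for 4 and 2 genes and lay near those of all tested genes. With the likelihood ratio test that the study's methods name, 5 members were called, *Gsk3b*, *Foxo3* and *Irs1* in addition, and with DESeq2 4 members, *Foxo3* and *Irs1* in addition. Calls over all genes rose as well, to 952 and 847, against 682 with the quasi-likelihood test.

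The promoters of 5 of these 6 genes are shown, as RefSeq gives the 250 bases before an annotated start in GRCm38.p6, since they belong to the members with the clearest zone difference. The deposited data do not measure promoters. Capitals mark a GC box (GGGCGG) or an E-box (CACGTG) on either strand. The windows are chr13:101768218-101768467 on the minus strand for *Pik3r1*, chr10:21993640-21993889 on the plus strand for *Sgk1*, chr10:42276696-42276945 on the minus strand for *Foxo3*, chr3:52268087-52268336 on the plus strand for *Foxo1* and chr1:82291440-82291689 on the minus strand for *Irs1*.
Pik3r1: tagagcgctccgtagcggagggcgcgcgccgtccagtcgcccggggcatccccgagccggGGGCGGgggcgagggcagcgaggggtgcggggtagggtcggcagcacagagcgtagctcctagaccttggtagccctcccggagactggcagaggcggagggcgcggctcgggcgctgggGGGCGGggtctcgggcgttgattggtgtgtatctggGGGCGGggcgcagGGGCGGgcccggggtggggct
Sgk1: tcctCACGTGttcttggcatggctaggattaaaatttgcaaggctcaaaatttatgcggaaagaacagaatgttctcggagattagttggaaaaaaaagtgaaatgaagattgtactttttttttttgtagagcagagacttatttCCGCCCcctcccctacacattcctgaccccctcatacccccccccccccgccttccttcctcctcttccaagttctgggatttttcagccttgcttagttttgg
Foxo3: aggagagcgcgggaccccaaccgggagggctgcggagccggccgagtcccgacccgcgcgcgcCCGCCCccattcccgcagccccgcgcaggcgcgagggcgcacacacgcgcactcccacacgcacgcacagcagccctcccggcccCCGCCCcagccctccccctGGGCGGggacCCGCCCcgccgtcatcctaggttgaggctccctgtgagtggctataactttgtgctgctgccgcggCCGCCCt
Foxo1: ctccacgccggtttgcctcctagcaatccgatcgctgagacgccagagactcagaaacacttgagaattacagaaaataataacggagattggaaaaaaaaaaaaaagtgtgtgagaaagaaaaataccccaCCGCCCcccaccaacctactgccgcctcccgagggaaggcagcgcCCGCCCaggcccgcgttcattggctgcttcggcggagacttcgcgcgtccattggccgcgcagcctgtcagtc
Irs1: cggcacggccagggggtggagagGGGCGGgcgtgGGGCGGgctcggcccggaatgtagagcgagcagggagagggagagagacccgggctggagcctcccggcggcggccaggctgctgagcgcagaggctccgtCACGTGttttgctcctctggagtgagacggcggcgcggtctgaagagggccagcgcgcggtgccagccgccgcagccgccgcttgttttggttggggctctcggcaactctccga
The *Pik3r1* and *Foxo3* windows held 4 and 5 GC boxes, those of *Foxo1* and *Irs1* 2 each and that of *Sgk1* 1. The *Sgk1* and *Irs1* windows each held 1 E-box. *Sgk1* has 6 annotated starts, of which 1 that is not shown held 4 GC boxes and 4 held none of the motifs searched, and the second *Pik3r1* start and the single *Gsk3b* start held none either. Among all 32851 such windows, 32.7% held a GC box and 6.02% an E-box. Of the 51 windows of members, 33 held a GC box. Counted by gene, which gives a gene with several starts several chances, 26 of 33 members with a window had a GC box in at least 1 window, and *Irs1*, *Irs2*, *Rheb* and *Sgk1* had an E-box. A FoxO motif (GTAAACA, in 3.17% of all windows) was found for *Akt1* and *Bcl2l11*, an ATF4 motif (TTGCATCA, 0.791%) for *Pik3cd*, an AP-1 motif (TGANTCA, 6.75%) for *Pik3ca*, and a cyclic AMP response element (TGACGTCA, 1.55%) for none. Both strands were searched, and the motifs could overlap. A match is a run of letters and not evidence of binding.

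*Irs1*, the adaptor that couples the IGF-1 and insulin receptors to PI3K, was lower in the resting zone at an adjusted p below 0.05 but was not called. Its levels in mice 1, 2, 6 and 13 were 5.92, 18.6, 42.5 and 29.0 CPM in resting libraries and 79.5, 66.6, 109 and 55.2 CPM in proliferative ones. Every proliferative library lay above every resting library, and the lowest resting level rested on 2 counts. The means were 24.0 ± 15.5 and 77.7 ± 23.4 CPM (SD, n = 4 each), with a log2 fold change of -1.60 (SE 0.49, adjusted p = 0.0269; this and every adjusted p below is from edgeR's quasi-likelihood fit). That p was 0.0528, 0.0568 and 0.0628 without the resting library of mouse 1, the resting library of mouse 2 or the proliferative library of mouse 6. Without the resting library of mouse 6 *Irs1* was called (log2 fold change -2.17, adjusted p = 0.00715). It was also called when genes with at least 1 count were kept (-1.82, adjusted p = 0.00369). *Irs1* (ENSMUSG00000055980, chromosome 1, 82233101 to 82291416, minus strand) shares 2822 bases of exon with *Gm9747* on the opposite strand. *Gm9747* held 11021 counts, against 194 for *Irs1*, and moved the same way, with 1039 ± 310 CPM in resting against 4873 ± 547 CPM in proliferative libraries (SD, n = 4 each, log2 fold change -2.16, adjusted p = 0.000141). With the strand of counting open to doubt, reads of *Gm9747* and *Irs1* cannot be told apart. The other adaptors were sparse. *Gab1*, a docking protein for several receptors, had 9, 5, 4 and 6 counts in the resting libraries of mice 1, 2, 6 and 13 and 6, 8, 9 and 4 in the proliferative ones, and *Irs2* had 1 count in all.

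*Pik3r1* encodes the regulatory subunit p85 alpha, which stabilizes the catalytic subunit and holds it inactive until an adaptor binds. It was the member with the lowest p. Resting libraries held 88.8, 49.7, 77.2 and 58.1 CPM in mice 1, 2, 6 and 13, and proliferative libraries 17.9, 8.76, 21.2 and 4.25 CPM. The lowest resting level was above the highest proliferative one, and the difference had the same sign in 4 of 4 mice. Means were 68.4 ± 17.8 and 13.0 ± 7.88 CPM (SD, n = 4 each), which made a log2 fold change of 2.35 (SE 0.47, adjusted p = 0.00266, and 0.00364 with the mouse as a block). The call was lost without the resting library of mouse 1 (adjusted p = 0.0103) or the proliferative library of mouse 2 (0.0161) or mouse 13 (0.0118, log2 fold change 2.03), the last of which held 1 count. The gene (ENSMUSG00000041417, chromosome 13, 101680563 to 101768217, minus strand) has no exon on the opposite strand in the annotation, which does not remove the doubt about strand.

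*Pik3ca*, the catalytic subunit p110 alpha, differed little between the zones. It stood at 53.3, 71.4, 75.3 and 58.1 CPM in the resting libraries of mice 1, 2, 6 and 13 and at 73.5, 56.1, 67.0 and 42.5 CPM in the proliferative ones. The zones overlapped, and the sign differed between mice. The log2 fold change was 0.17 (SE 0.33, adjusted p = 0.741), and it turned to -0.05 with upper quartile scaling. *Pik3cd*, the p110 delta subunit known chiefly from leukocytes, had 44 counts and was left out by the filter. Its counts were 6, 8, 10 and 3 in the resting libraries of mice 1, 2, 6 and 13 and 5, 6, 3 and 3 in the proliferative ones. After scaling for depth every resting library was above every proliferative one. This by itself fixes the two-sided exact permutation p at 0.0286, the lowest possible for 4 against 4 libraries taken as unpaired. In a fit over all genes with at least 16 counts, however, the log2 fold change of *Pik3cd*, 0.93, had an SE of 0.62 and an adjusted p of 0.352. *Pik3cb* and *Pik3r2*, a second catalytic and a second regulatory subunit, had 23 and 20 counts, and *Pik3r3* had 2.

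Among the kinases that PI3K activates, *Sgk1* was called higher in the resting zone, and *Akt1* and *Akt2* did not pass. *Sgk1* encodes a serum- and glucocorticoid-induced kinase that is related to Akt and shares FoxO proteins as substrates. Its levels were 101, 96.3, 125 and 53.2 CPM in the resting libraries of mice 1, 2, 6 and 13, and 19.9, 5.26, 18.0 and 42.5 CPM in the proliferative ones. The zones did not overlap, though the 2 libraries of mouse 13 came close. Means were 93.9 ± 30.0 and 21.4 ± 15.5 CPM (SD, n = 4 each), and the log2 fold change was 2.34 (SE 0.52, adjusted p = 0.00437, and 0.00896 with the mouse as a block). Leaving out the resting library of mouse 1 or the proliferative library of mouse 1, 2 or 6 raised the adjusted p to 0.0126, 0.0120, 0.0150 and 0.0200. *Sgk1* (ENSMUSG00000019970) lies on the plus strand of chromosome 10, 21882184 to 21999903.

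*Akt2*, the Akt isoform best known for insulin-stimulated glucose uptake, had 29.6, 9.32, 44.4 and 19.4 CPM in the resting libraries of mice 1, 2, 6 and 13 and 55.7, 45.6, 63.7 and 72.2 CPM in the proliferative ones. Every proliferative library was above every resting library, if narrowly between mouse 6 and mouse 2. The means of 25.7 ± 15 and 59.3 ± 11.4 CPM (SD, n = 4 each) gave a log2 fold change of -1.06 (SE 0.46) that missed both thresholds (adjusted p = 0.104). *Akt1*, the widely expressed isoform, was at 50.3 ± 12.5 and 50.4 ± 11.6 CPM (SD, n = 4 each), with a log2 fold change of 0.05 (SE 0.37, adjusted p = 0.942). *Pdpk1*, the kinase that phosphorylates Akt in its activation loop, had 35 counts, of which 20 were in the resting library of mouse 6.

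**Figure D1:**
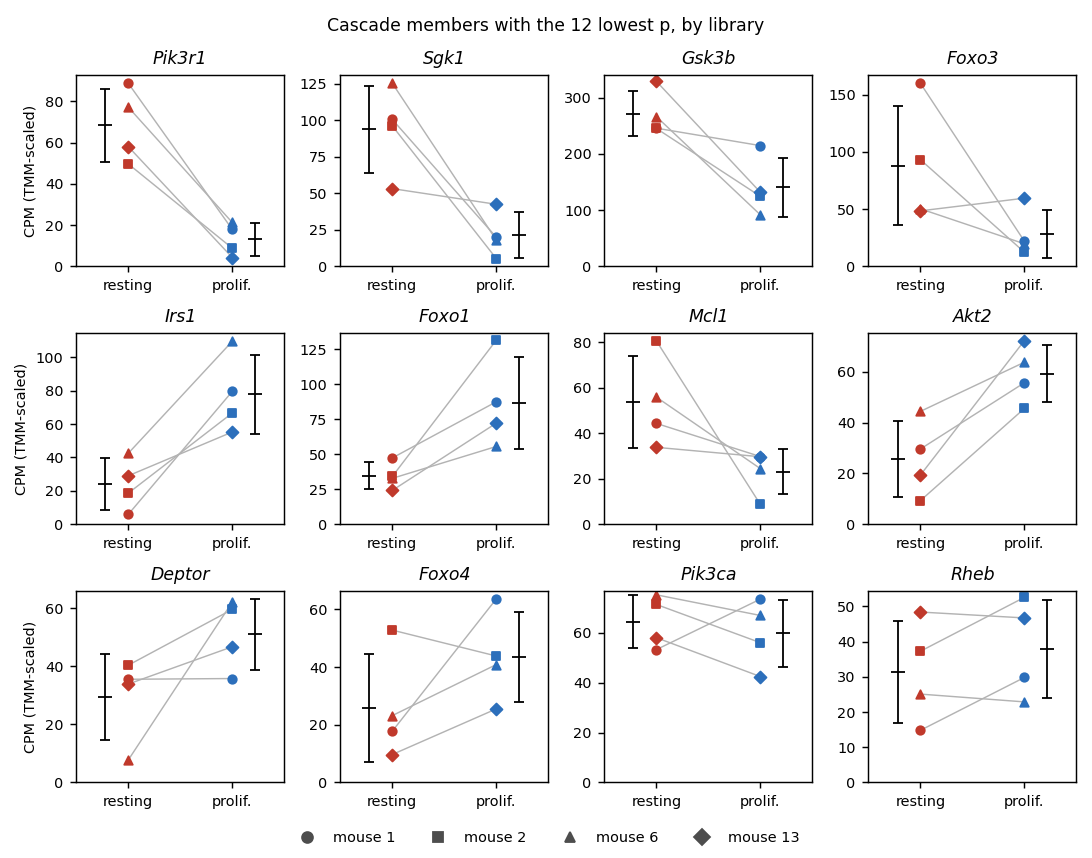
Each panel shows 1 cascade member, with the CPM of the resting and proliferative libraries on the y axis, lines joining the 2 libraries of a mouse, and the mean ± SD of 4 libraries beside the points. *Pik3r1* and *Sgk1* are higher in every resting library, *Irs1*, *Foxo1* and *Akt2* are lower in every resting library, and *Pik3ca* and *Rheb* cross between mice.

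The mTOR kinase and its partners had few counts. *Mtor* itself had 7, 3, 7 and 0 counts in the resting libraries of mice 1, 2, 6 and 13 and 7, 13, 5 and 5 in the proliferative ones. *Rictor*, the defining subunit of mTOR complex 2, which phosphorylates Akt and SGK1, had 6, 10, 23 and 4 against 10, 4, 17 and 6 counts. *Mlst8*, a subunit of both mTOR complexes, had 2, 17, 8 and 0 against 7, 7, 9 and 4 counts, and it shares 997 bases of exon with *Bricd5*. The zones overlapped for all 3 genes, and none differed in the fit over genes with at least 16 counts (adjusted p of 0.653, 0.655 and 0.842). *Rptor*, the defining subunit of complex 1, had 14 counts. *Rheb*, the small GTPase that switches on complex 1, stood at 14.8, 37.3, 25.1 and 48.4 CPM in the resting libraries of mice 1, 2, 6 and 13 and at 29.8, 52.6, 22.9 and 46.7 CPM in the proliferative ones. These ranges overlapped, and the log2 fold change was -0.24 (SE 0.47, adjusted p = 0.745). *Rps6kb1*, the S6 kinase downstream of complex 1, had means of 56.4 ± 29.5 and 64.2 ± 28.6 CPM (SD, n = 4 each) and a log2 fold change of -0.18 (SE 0.49, adjusted p = 0.817).

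*Tsc2*, whose product tuberin restrains Rheb, had the highest level of the members and did not differ detectably between the zones. Its levels were 944, 987, 1386 and 1345 CPM in the resting libraries of mice 1, 2, 6 and 13 and 1051, 1545, 1242 and 896 CPM in the proliferative ones. Resting was lower in both males and higher in both females, and the means of 1166 ± 232 and 1184 ± 279 CPM (SD, n = 4 each) gave a log2 fold change of 0.04 (SE 0.24, adjusted p = 0.919). *Tsc1*, its partner, had only 9 counts. *Tsc2* shares 693 bases of exon with *Pkd1* on the opposite strand, which held 281 counts, and reads of the pair cannot be told apart. *Deptor*, an inhibitor that binds mTOR in both complexes, had 35.5, 40.4, 7.72 and 33.9 CPM in the resting libraries of mice 1, 2, 6 and 13 and 35.8, 59.6, 62.1 and 46.7 CPM in the proliferative ones. The proliferative library was higher in 4 of 4 mice, by almost nothing in mouse 1 and most in mouse 6, whose resting library stood below the other 3. The log2 fold change of -0.79 (SE 0.49, adjusted p = 0.260) did not pass, and without that library it was -0.44. No other restraining member passed the filter. *Eif4ebp1*, a translation repressor that complex 1 inactivates, and *Sesn1*, a stress-induced inhibitor of complex 1, had 31 and 16 counts with adjusted p of 0.623 and 0.409 in the fit over genes with at least 16 counts. *Inpp4b*, *Phlpp1*, *Eif4ebp2*, *Sesn2* and *Ddit4* had 4 to 12 counts each.

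The FoxO genes, whose products Akt and SGK1 hold in the cytoplasm, had fold changes of both signs, and those of *Foxo3* and *Foxo1* passed an adjusted p of 0.05 without being called. *Foxo3* was at 160, 93.2, 50.2 and 48.4 CPM in the resting libraries of mice 1, 2, 6 and 13 and at 21.9, 12.3, 19.6 and 59.5 CPM in the proliferative ones. The resting library was the higher one in 3 of 4 mice, and the zones overlapped through mouse 13. Means were 87.9 ± 52.2 and 28.3 ± 21.2 CPM (SD, n = 4 each), which made a log2 fold change of 1.83 (SE 0.55, adjusted p = 0.0232), and without the resting library of mouse 1 the adjusted p was 0.101. It was also 0.0600, 0.0869 and 0.0808 without the proliferative library of mouse 1, 2 or 6. The gene (ENSMUSG00000048756, chromosome 10, 42181841 to 42276755, minus strand) has no exon on the opposite strand.

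*Foxo1* was lower in the resting zone. Its levels were 47.4, 34.2, 32.8 and 24.2 CPM in the resting libraries of mice 1, 2, 6 and 13 and 87.5, 131, 55.6 and 72.2 CPM in the proliferative ones. The zones did not overlap. Means were 34.6 ± 9.57 and 86.7 ± 32.6 CPM (SD, n = 4 each), which made a log2 fold change of -1.24 (SE 0.39, adjusted p = 0.0276, and 0.0496 with the mouse as a block). Without the resting library of mouse 2 or 13, or the proliferative library of mouse 2, the adjusted p was 0.0503, 0.0580 and 0.0792. *Foxo1* (ENSMUSG00000044167, chromosome 3, 52268336 to 52353221, plus strand) shares 674 bases with *Gm20402*, on which no count fell. *Foxo4* had 17.8, 52.8, 23.2 and 9.68 CPM against 63.6, 43.8, 40.8 and 25.5 CPM in mice 1, 2, 6 and 13. It was lower in the resting library of 3 of 4 mice, without passing (log2 fold change -0.67, SE 0.50, adjusted p = 0.348). The difference between the fold changes of *Foxo1* and *Foxo3* was not tested.

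Of the GSK3 kinases, which Akt inhibits, *Gsk3b* was higher in the resting zone at an adjusted p below 0.05, and *Gsk3a* did not differ detectably. *Gsk3b* had 246, 245, 266 and 329 CPM in the resting libraries of mice 1, 2, 6 and 13 and 215, 124, 91.5 and 132 CPM in the proliferative ones. The zones did not overlap, with the smallest gap in mouse 1. Its log2 fold change was 1.01 (SE 0.29, adjusted p = 0.0182), which missed the threshold of 0.01. Without the proliferative library of mouse 2, 6 or 13 or the resting library of mouse 13, the adjusted p was 0.0926, 0.108, 0.0936 and 0.0563, and without the proliferative library of mouse 1 it was 0.00640. It was also 0.0559 with upper quartile factors, and 0.0944 and 0.143 when genes with at least 16 counts or at least 1 count were kept, while with at least 10 counts in every library it was 0.00904 and *Gsk3b* was called. *Gsk3a* was at 202 ± 20.7 and 197 ± 16.7 CPM (SD, n = 4 each), which made a log2 fold change of 0.10 (SE 0.22, adjusted p = 0.785). It shares 820 of its 2900 exonic bases with *9130221H12Rik*, which held 63 counts.

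*Mcl1*, a short-lived survival protein of the BCL2 family that GSK3 marks for degradation, had 44.4, 80.7, 56.0 and 33.9 CPM in the resting libraries of mice 1, 2, 6 and 13. Proliferative libraries held 29.8, 8.76, 24.5 and 29.7 CPM, so that the zones did not overlap, although mouse 13 differed by little. The log2 fold change was 1.32 (SE 0.47, adjusted p = 0.0501). *Bcl2l11*, the cell death protein BIM and a FoxO target, had 6, 2, 1 and 1 counts in the resting libraries and 2, 0, 0 and 0 in the proliferative ones.

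**Figure D2:**
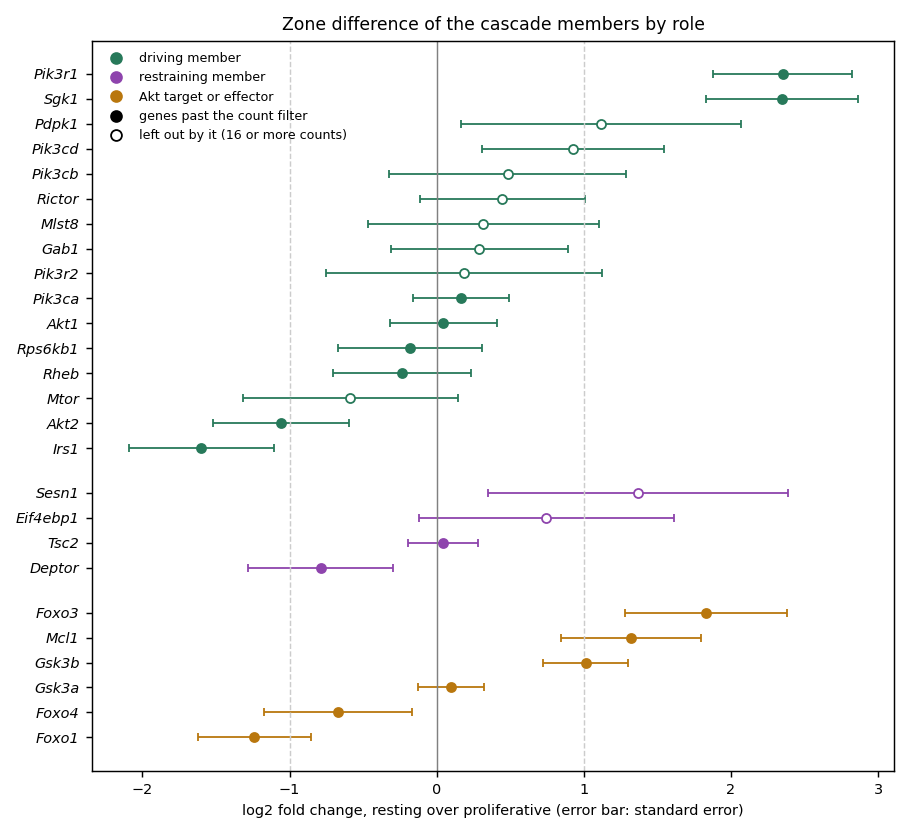
Log2 fold changes of resting over proliferative (x axis, with bars of 1 standard error) are drawn for the 26 members with at least 16 counts, grouped and colored by role. Filled points come from the fit over 3793 genes, and open points are the 10 members that its filter left out. Driving members spread from *Irs1* at -1.60 to *Pik3r1* at 2.35, so that no role stands on 1 side of 0.

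By role, 4 of the 8 tested driving members had a fold change above 0 and 4 below, with a median log2 fold change of -0.07. The 2 restraining members had a median of -0.37 and the 6 effectors one of 0.55, while the median of all 3793 genes was 0.08. With the 26 members that had at least 16 counts these medians were 0.24, 0.30 and 0.36, against 0.10 for all 9641 genes of that fit, so that the medians of the driving and the restraining members changed sign with the filter. That fit also used other scaling factors, which shifted the log2 fold changes of the genes shared with the first fit by a median of -0.18 and turned those of *Pik3ca*, *Gsk3a*, *Tsc2* and *Akt1* below 0. Within mice 1, 2, 6 and 13, on the scale of log2(CPM + 1), the 8 driving members of the first fit had medians of -0.25, -0.02, -0.10 and 0.25, the 2 restraining ones of -0.08, -0.60, -1.35 and 0.07, and the 6 effectors of -0.04, 0.62, 0.60 and -0.05. Each of the 3 roles thus had both signs among the mice, and the difference between roles was not tested.

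**Figure D3:**
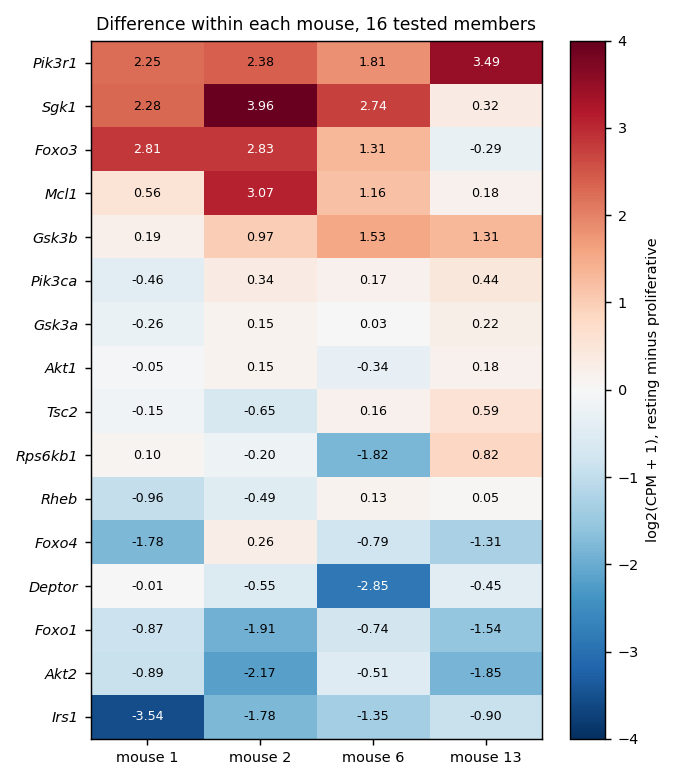
Each cell gives the difference in log2(CPM + 1) between the resting and the proliferative library of 1 mouse (columns) for 1 tested member (rows, ordered by mean), with red for higher in resting. *Pik3r1* lies between 1.81 and 3.49 in all 4 mice, while *Foxo3* turns to -0.29 in mouse 13 and *Foxo4* to 0.26 in mouse 2.

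The zones did not overlap for 7 of the 16 tested members (43.8%), 4 higher in the resting zone (*Pik3r1*, *Sgk1*, *Gsk3b*, *Mcl1*) and 3 higher in the proliferative zone (*Irs1*, *Akt2*, *Foxo1*). Among all 3793 tested genes this share was 33.1%. For each of the 7 this lack of overlap by itself fixes the p of an exact two-sided permutation test at its lowest value (p = 0.0286). That test, over the 70 arrangements of 4 against 4, takes the libraries as unpaired and adds nothing to the lack of overlap. Exchanging the zones within each mouse, a test chosen after seeing the data, has 16 arrangements and cannot give an exact two-sided permutation p below 0.125, so that 0 members could pass 0.05 in it. Of the 20 members that the filter left out, 10 had at least 16 counts, and 0 of them were called (adjusted p between 0.352 and 0.925), with 0 at an unadjusted p below 0.05 and 0 called by DESeq2 or the likelihood ratio test. In that fit 464 (4.81%) of 9641 genes were called in the resting direction and 319 (3.31%) in the proliferative direction, and of the 5848 genes that the first filter had left out 177 (3.03%) were called in either direction. The other 10 members had 1 to 14 counts. When every gene with a count was fitted, edgeR called 0 of these 10 (adjusted p between 0.175 and 0.946), and 1, *Inpp4b*, had an unadjusted p below 0.05. A zone difference that depended on sex was found for 1 gene of 3793 (0.0264%) at an adjusted p below 0.05, and not for a member. The 1 member with an unadjusted p below 0.05 in this interaction was *Foxo3*, whose log2 fold change in females minus that in males was -2.44 (adjusted p = 0.723 from edgeR).

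Counts were compared between genes only per length, as CPM per kilobase of annotated exon. Whether counts rose with exon length after the amplification was not tested, so an order of genes below holds only for this scale. On this scale *Tsc2* was highest in both zones, with 121 ± 24.1 in resting and 123 ± 29.0 in proliferative libraries (SD, n = 4 each), followed by *Gsk3a* with 69.7 ± 7.12 and 68.1 ± 5.76 and by *Gsk3b* with 27.6 ± 4.02 and 14.3 ± 5.33. *Sgk1* came next in the resting zone, at 19.2 ± 6.12, and stood at 4.36 ± 3.16 in the proliferative zone. *Pik3r1* was at 6.79 ± 1.77, near its catalytic partner *Pik3ca* at 7.10 ± 1.16, in the resting zone. In the proliferative zone *Pik3r1* was at 1.29 ± 0.78 and *Pik3ca* at 6.58 ± 1.50. *Foxo3* was at 11.6 ± 6.90 and *Foxo1* at 4.00 ± 1.10 in the resting zone, and this order was inverted in the proliferative zone, with 3.74 ± 2.80 and 10.0 ± 3.76.

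All 36 members together made up 0.264% ± 0.028 of all counts in resting libraries and 0.211% ± 0.022 in proliferative ones (SD, n = 4 each). Their summed level was 2283 to 2658 CPM in resting and 1950 to 2606 CPM in proliferative libraries, and these ranges overlapped. Without *Tsc2* the sums were 1191 to 1397 and 990 to 1199 CPM, overlapping by little. Within mice the resting library had the higher sum without *Tsc2* in 4 of 4, the higher sum with it in 3 of 4, and the higher share of all counts in 4 of 4.

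**Figure D4:**
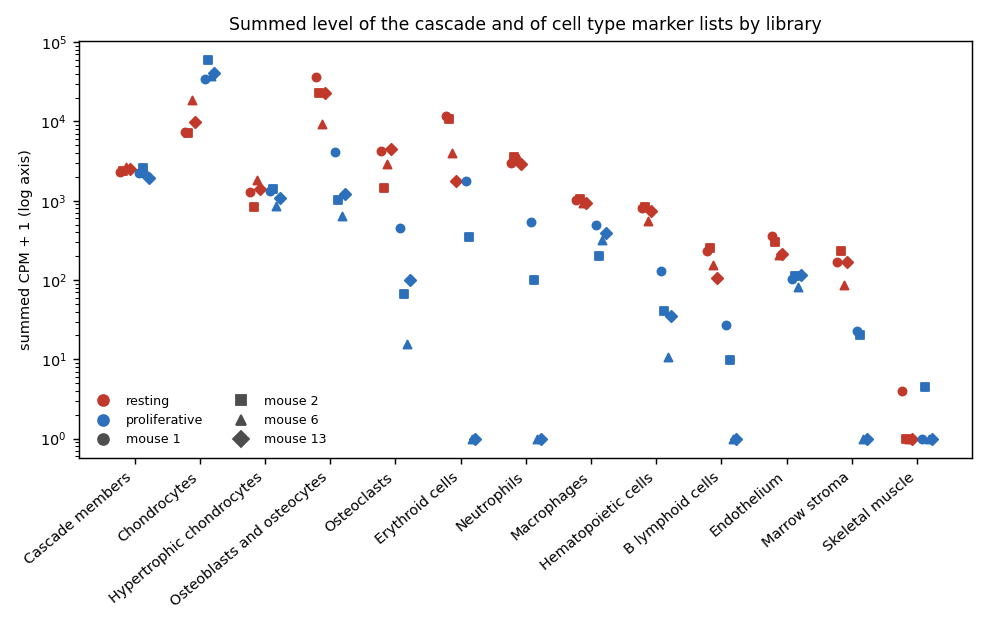
Points show, for each library, the summed CPM + 1 on a log axis of the 36 cascade members and of 12 marker lists (x axis), with red for resting, blue for proliferative and a symbol per mouse. The cascade sums overlap between the zones, whereas bone and blood markers are higher in every resting library and chondrocyte markers in every proliferative library.

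Further genes of the cascade were taken from a list of 64, of which 14 were tested, and 0 of these were called in the resting and 2 in the proliferative direction, against 11.0% and 6.93% of all tested genes. The median log2 fold change of the 14 was -0.44, against 0.08 for all tested genes. It does not stand for the whole list, as 36 of the 63 listed genes in the count table had the higher mean in the resting zone. *Grb10*, an adaptor that inhibits the insulin and IGF-1 receptors and is a substrate of mTOR complex 1, had 104, 34.2, 118 and 184 CPM in the resting libraries of mice 1, 2, 6 and 13 and 473, 578, 827 and 629 CPM in the proliferative ones. The zones were far apart, with a log2 fold change of -2.47 (SE 0.39, adjusted p = 0.000677). *Eif4b*, a translation initiation factor that S6 kinase phosphorylates, was at 54.0 ± 5.40 and 128 ± 21.1 CPM (SD, n = 4 each). This gave a log2 fold change of -1.17 (SE 0.29, adjusted p = 0.00918), and the call was lost with the mouse as a block (adjusted p = 0.0252). At an adjusted p below 0.05, *Rps6*, the ribosomal protein that S6 kinase phosphorylates (log2 fold change -0.71), and *Rraga*, a GTPase that brings mTOR complex 1 to lysosomes (-0.78), were also lower in the resting zone. *Grb2*, an adaptor between receptors and Ras, was higher there (1.48). With the mouse as a block, the adjusted p of *Rps6*, *Rraga* and *Grb2* were 0.0549, 0.0680 and 0.0903, and none of the 3 passed.

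Upstream of the cascade, 5 of 15 receptors and ligands were tested. *Igf1*, the ligand, was the 1 called gene (called higher in the resting zone, as were 11.0% of all tested genes), with 50.3, 46.6, 77.2 and 121 CPM in the resting libraries of mice 1, 2, 6 and 13 and 3.98, 0, 3.27 and 0 CPM in the proliferative ones (adjusted p = 0.000320). Each proliferative library held at most 2 of its counts, and no fold is given. *Fgfr2* was higher in the resting zone at an adjusted p of 0.0166 (log2 fold change 1.86). *Igf1r* and *Insr*, the receptors that feed *Irs1*, had 70 and 51 counts and did not pass the filter.

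Of 32 genes listed as FoxO targets, 9 were tested, of which 1 was called higher in the resting zone and 1 lower (11.0% and 6.93% of all tested genes), with a median log2 fold change of 0.85. *Ccnd2*, the cell cycle protein cyclin D2, had 63.2 ± 32.9 CPM in resting and 13.9 ± 1.36 CPM in proliferative libraries (SD, n = 4 each, log2 fold change 2.17, SE 0.46, adjusted p = 0.00341), and its call was lost with the mouse as a block (adjusted p = 0.0103). *Bnip3*, a mitophagy receptor that hypoxia also induces, had 2, 6, 6 and 1 counts in the resting libraries of mice 1, 2, 6 and 13 and 116, 137, 129 and 72 in the proliferative ones (adjusted p = 5.00e-05). It shares 504 bases of exon with *Gm45507*, and with so few resting counts no fold is given. *Cat*, the antioxidant enzyme catalase, and *Map1lc3b*, an autophagosome protein, were higher in the resting zone at an adjusted p below 0.05 (log2 fold changes 1.50 and 1.03). The list shares *Rictor*, *Irs2*, *Bcl2l11* and *Sesn1* with the 36 members, and none of these 4 passed the filter. Of 22 listed targets of ATF4, a transcription factor whose translation mTOR complex 1 promotes, 7 were tested, with 0 called in the resting and 2 in the proliferative direction (again against 11.0% and 6.93%). *Slc7a1*, a cationic amino acid transporter, had a log2 fold change of -2.36 (SE 0.56, adjusted p = 0.00670), and its call was lost with the mouse as a block (adjusted p = 0.0160). *Shmt2*, a mitochondrial enzyme of serine metabolism, had 2, 4, 11 and 1 counts in the resting and 225, 196, 175 and 140 in the proliferative libraries of mice 1, 2, 6 and 13 (adjusted p = 5.00e-05), and shares 32 bases of exon with *Ndufa4l2*. *Ddit3*, a stress-induced transcription factor, was also lower in the resting zone, at -0.70 (adjusted p = 0.0175). The median of the 7 was -0.70.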

How the data were processed

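RNA of resting and proliferative chondrocytes from 4 mice was sequenced after laser microdissection. Per the labels and the study's methods, the authors aligned reads with HISAT2 2.1.0 to GRCm38 and counted them per gene with HTSeq 0.11.2, and deposited unnormalized counts of 43629 genes. The strand setting is not given in the sources used here, and counts of *mt-Nd6* and *Tsix* put it in doubt. A second deposited table, the authors' own comparison of 11840 genes, holds 8 columns of scaled signal per library and their fold changes and p-values. Only its gene names were used.

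Counts were analyzed with edgeR 4.0.16 (TMM, a filter by zone set to 10 counts and to 15 in total, quasi-likelihood test, zone as the only term) in R 4.3.3. Members below this filter were tested in a fit over genes with a total of at least 16 counts. Adjustment of p-values followed Benjamini and Hochberg, over all genes tested. Single members were also compared by exact permutation of the 8 libraries, on log2(CPM + 1). Library totals ranged from 192882 to 631474 counts, and their size sets the precision of low values. Coordinates and exon overlaps come from GENCODE M21 (GRCm38), a later release than the authors used, and promoters from RefSeq.

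All libraries were mapped to a zone by the labels. The labels give the 2 libraries of each number to the same animal, so these are pairs. With the mean of each zone subtracted, their correlation across genes was 0.165, 0.0138, 0.137 and 0.0579 in mice 1, 2, 6 and 13. Libraries of a zone differed by at least 5.06 times the sampling noise (chi-square per degree of freedom). With 1 library per mouse and zone, p-values of the fit with zone as the only term measure the spread between libraries of a zone. In that spread animal, cutting and amplification cannot be told apart.

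The members and lists were chosen with earlier results of these data known. Full values are given for called members and for those with the next lowest p, up to 12, for other members with at least 40 counts, and for list genes with the lowest p. Alternatives were the likelihood ratio test, DESeq2 1.42.0, a bias-adjusted quasi-likelihood test, other scaling factors, filters, thresholds and pseudocounts, the mouse as a block, each library or mouse left out and, added after seeing the data, permutation within each mouse. The fit was tested on simulated counts with known changes.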

Additional observations from a re-analysis of the deposited data

Results flagged for a closer look

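*Rheb* and *Tsc2* are given here because the zone difference had one sign in both females and the other in both males. The log2(CPM + 1) difference of resting minus proliferative for *Rheb* was 0.13 and 0.05 in female mice 6 and 13 and -0.96 and -0.49 in male mice 1 and 2, so that the female mean lay 0.81 above the male mean. For *Tsc2* these differences were 0.16 and 0.59 in females and -0.15 and -0.65 in males, with a female mean 0.77 above the male mean. The interaction of zone and sex had an adjusted p of 0.938 for *Rheb* and 0.807 for *Tsc2* in edgeR's quasi-likelihood fit. Such opposite signs appeared in 2 of the 16 tested members, or 12.5%, and in 232 of all 3793 tested genes, or 6.12%. The values of each zone were also examined with Dixon's test for the 21 members that passed the first filter or had at least 40 counts, in 42 groups of 4 libraries. No library stood apart on the scale of CPM. On that of log2(CPM + 1), the resting library of mouse 6 stood below the others of its zone for *Deptor* (3.12 against 5.12 to 5.37), and the proliferative library of mouse 2 did so for *Mcl1* (3.29 against 4.67 to 4.95). Chance marks about 1 in 20 such groups. Without these libraries the log2 fold change was -0.44 for *Deptor* (adjusted p = 0.427 from edgeR) and 0.91 for *Mcl1* (adjusted p = 0.178).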

How the results depend on the processing

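Compared with 682 genes called, of which 2 were members, the count was 1297 genes and 3 members with all genes of at least 1 count (*Irs1* in addition). With at least 10 counts in every library it was 273 genes and 1 member (*Gsk3b*, as this filter leaves out *Pik3r1* and *Sgk1*). At an adjusted p below 0.05 alone it was 1186 genes and 6 members. The likelihood ratio test called 952 genes and 5 members, and DESeq2 847 genes and 4 members. With upper quartile factors 698 genes and 2 members were called. Of these genes 339 were higher in the resting zone, against 419 of 682 in the first fit, so the balance of directions depended on scaling. Leaving out a library or a mouse gave 304 to 821 genes and 0 to 3 members. Gene counts were lowest without the proliferative library of mouse 2 (442), without mouse 2 (394) and without mouse 13 (304), and 0 members were called without the resting library of mouse 1, the proliferative library of mouse 2 or both libraries of mouse 2. The mouse as a replicate block gave 384 genes higher in the resting and 230 higher in the proliferative zone, kept both member calls and changed no call of another member. The median of the driving members, -0.07, was -0.29 with upper quartile factors, 0.17 with all genes of at least 1 count, 0.24 with at least 16 counts and 0.15 with at least 10 counts in every library. That of the restraining members, -0.37, was 0.72 and 0.30 with totals of at least 1 and at least 16 counts and 0.10 with at least 10 counts in every library, fits that hold other numbers of members. The log2 fold change of *Pik3ca* reversed to -0.0489 with upper quartile factors, -0.0666 with at least 1 count and -0.0210 with at least 16 counts, and it ranged from -0.0737, without the proliferative library of mouse 13, to 0.336 when libraries or mice were left out. The sex interaction was found for 21 genes with the likelihood ratio test and 0 genes with at least 10 counts in every library. Exchanging the zones within each mouse, a block chosen after seeing the data, left 0 members below a permutation p of 0.05, since its exact two-sided p cannot fall below 0.125. The first filter left out 20 of 36 members for few counts. The cause of the other shifts was not tested.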
